A study of Mus musculus with 4 samples.

Results

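The ERK feedback genes are 9 transcripts that rise with signalling through ERK, a kinase of the MAP kinase family, in many cell types and whose products act back on that signalling or carry it into the nucleus. They are the phosphatase genes Dusp4 and Dusp6, the Sprouty genes Spry1, Spry2 and Spry4, the related gene Spred1, the transcription factor genes Etv4 and Etv5, and Phlda1. They were chosen by symbol from a table of read counts for 35976 genes, and all 9 were found and passed the filter on low counts, among 16209 genes tested. The cells were mouse E14 embryonic stem cells, wild type before treatment, with the strain given as 12910la. The knockdown group, 2 libraries, had received short hairpin RNA against the RNA Lx8-SINE B2, whose name joins Lx8, a subfamily of long interspersed LINE-1 repeats, and SINE B2, a family of short interspersed repeats. The control group, 2 libraries, was described as wild type, and the vector these cells received is not stated in the labels. A single protocol is attached to both groups: feeder-free culture on gelatin in 15% serum with LIF at 10 ng/ml, transfection with a pSuper puro vector, and from 24 h onwards 3 days of puromycin at 1 ug/ml. The labels describe selection of transfected cells and mention no cloning, and the hairpin sequences are not used here.

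In embryonic stem cells FGF4, secreted by the cells themselves, binds FGF receptors and activates RAS, RAF, MEK and then ERK. This signal prepares the cells to leave the undifferentiated state. ERK activity in turn induces its own inhibitors. DUSP phosphatases remove the activating phosphates from ERK, Sprouty and SPRED proteins restrain the path between receptor and RAF, and transcripts of these genes together with Etv4 and Etv5 are widely used to read the activity of the pathway.

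Library totals were 18592224 and 16383323 counts in the knockdown group, against 19867689 and 19044832 in the control group. Genes of the mitochondrial genome took 0.60% and 0.72% of counts in the knockdown libraries, against 0.66% and 1.13% in the controls. The share was highest in control replicate 2, and its part in the results was not tested. Counts within a group exceeded sampling noise (chi-square over its degrees of freedom 19.7 for the knockdown pair and 42.3 for the control pair), so each library was counted as a replicate. The labels do not say whether replicates were separate cultures, so p-values measure a spread that may be technical. Titles name a batch for the knockdown libraries alone, so batch and knockdown cannot be told apart. The defining stem cell genes Pou5f1, Sox2 and Nanog ranged from 437 to 1256 CPM (counts scaled to a common library size, here with TMM factors) over the 4 libraries, and the targeted RNA was not analysed here. In such bulk samples, fewer cells of a type and less RNA per cell cannot be told apart.

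Of the 9 feedback genes, Phlda1 alone rose in the knockdown cells, and the other 8 were not called in either direction. The call required an adjusted p below 0.05 in edgeR's quasi-likelihood test, with Benjamini-Hochberg adjustment over all 16209 genes. By this rule 1 of the feedback genes rose and 0 fell, where 0.876% of tested genes rose, 0.555% fell and 1.43% were called in all. At an unadjusted p below 0.05 the feedback genes had 2 higher (Phlda1 and Spry2) and 2 lower (Spry1 and Etv4), where 11% of tested genes were higher, 8.58% lower and 19.6% past that level in all. DESeq2 and limma-voom also called Phlda1 higher and 0 members lower. The call of Phlda1 was lost in the fits without control replicate 2 and without knockdown replicate 2, so 0 of the 9 members were called there. The median log2 fold change of the 9 genes, knockdown over control, was 0.15, beside 0.01 over all tested genes. This median was -0.18 without control replicate 2 and -0.053 without knockdown replicate 1, but 0.48 without control replicate 1 and 0.50 without knockdown replicate 2.

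**Figure D1:**
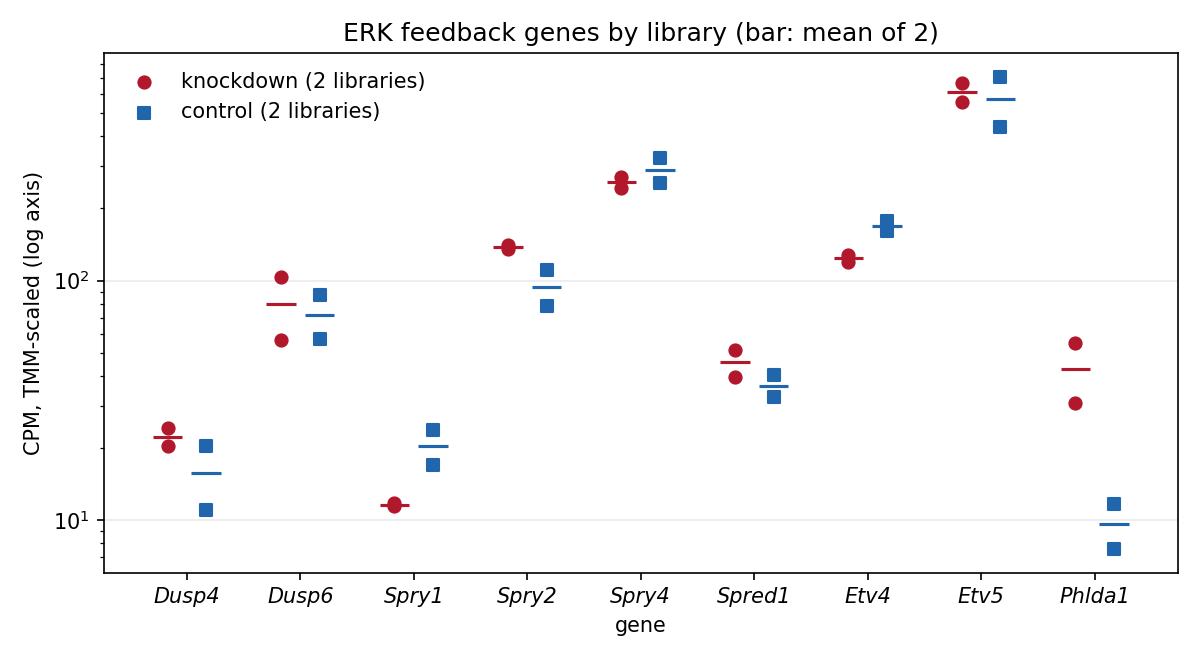
CPM of the 9 ERK feedback genes on a log axis, with 1 point per library and a short line at the mean of each group, knockdown (red circles) left of control (blue squares). Phlda1 stands at 30.8 and 54.8 CPM in the knockdown libraries, against 11.6 and 7.57 CPM in the controls, while the groups of Dusp4, Dusp6, Spry4, Spred1 and Etv5 overlap.

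Phlda1 encodes a small protein with a pleckstrin homology-like domain that has been linked to cell survival and to restraint of receptor signalling. It lies on the plus strand of chromosome 10 from 111506286 to 111508649 (mm10). Phlda1 had 30.8 and 54.8 CPM in the knockdown libraries, against 11.6 and 7.57 CPM in the control libraries. Both knockdown libraries lay above both controls, and the knockdown libraries stood farther from each other than the controls did. Its mean was 42.8 ± 16.98 CPM in knockdown cells and 9.60 ± 2.86 CPM in control cells (SD, n = 2 each). The log2 fold change was 2.15 (SE 0.35, edgeR adjusted p = 0.0346), a 4.45-fold increase with a 95% interval of 2.55 to 7.78. By p-value it ranked 127th of the tested genes, and by the size of the increase 287th. Without control replicate 2 its log2 fold change was 1.83 (edgeR adjusted p = 0.063), and without knockdown replicate 2 it was 1.68 (edgeR adjusted p = 0.0549). Over all 13 alternative analyses the adjusted p ran from 1.36e-10 to 0.063 and the log2 fold change from 1.68 to 2.51. Exons of Phlda1 overlap 727 bases of Gm28592, a noncoding gene on the opposite strand, for which the table has no row under that name. The strand setting of the counting is not given, so reads of these overlapping genes cannot be told apart.

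Summed primitive endoderm markers lay higher in both knockdown libraries than in both controls, as Phlda1 did. Within each pair of libraries, however, their order was opposite to that of Phlda1. The summed level of 8 primitive endoderm markers was 40.6 and 30.1 CPM in the knockdown libraries, against 12.7 and 18.6 CPM in the controls. Of the 6 that were tested, 6 had a positive log2 fold change and 0 were called by edgeR's quasi-likelihood test or limma-voom, with 4 at an unadjusted p below 0.05 and 1, Gata6, called higher by DESeq2 and the edgeR likelihood ratio test. Over all 16209 tested genes, 8179 had a positive log2 fold change, and 27.3% had both knockdown libraries above both controls. No marker of the list was at 0 counts in all libraries. The 8 mesoderm markers summed to 12.9 and 11.7 CPM in the knockdown libraries, against 5.55 and 7.11 CPM in the controls. Without Kdr, left out after the values were seen, the other 7 summed to 2.67 and 2.49 CPM in the knockdown libraries, against 2.91 and 4.46 CPM in the controls. The neural markers held 1 called gene, Neurod1, which rose, at 11.2 and 12.3 CPM in the knockdown libraries, against 2.96 and 2.59 CPM in the controls. The neural sum, with Tubb3 as its largest part, was 149 and 125 CPM in the knockdown libraries, against 125 and 134 CPM in the controls. The trophectoderm sum was 30.4 and 77.8 CPM in the knockdown libraries, against 37.2 and 48.3 CPM in the controls. Krt8 alone gave 10.3 and 38.8 CPM of it in the knockdown libraries, against 11.6 and 22.7 CPM in the controls. The fibroblast sum was 11.0 and 11.8 CPM in the knockdown libraries, against 24.99 and 33.1 CPM in the controls, with Postn and Lum at 0 counts throughout. Most of the control sum came from Thy1, at 13.3 and 12.9 CPM, and Pdgfrb, at 9.51 and 16.5 CPM. Of the 8 fibroblast markers 4 were tested, of which 3 had a negative log2 fold change and 1, Col1a2, a positive one. The 8 stem cell markers summed to 4961 and 5660 CPM in the knockdown libraries, against 6468 and 6088 CPM in the controls. Dppa5a alone gave 664 and 1021 CPM of this sum in the knockdown libraries, against 1437 and 1446 CPM in the controls. The other 7 stem cell markers overlapped between groups. Apart from Neurod1, edgeR's quasi-likelihood test called 0 genes of these lists, while DESeq2, limma-voom and the edgeR likelihood ratio test called Kdr (mesoderm) higher, and DESeq2 and the likelihood ratio test also called Gata3 (trophectoderm) higher and Pdgfrb, Thy1 (fibroblast) and Dppa5a (stem cell) lower. At an unadjusted p below 0.05 there were 1 higher and 1 lower among mesoderm, 1 higher among trophectoderm, 2 lower among fibroblast and 1 lower among stem cell markers. Of all tested genes, 11% were higher and 8.58% lower at that level, and 1.43% were called by the adjusted p. The part of other cell types in the Phlda1 result was not tested.

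Of 9502 other tested genes averaging at least 10 CPM, the 3 whose profile over the 4 libraries lay closest to that of Phlda1 were Trim7, Pgbd5 and LOC105246506. Likeness was the Euclidean distance of log2 CPM after each gene was centred on its own mean, and came to 0.34, 0.39 and 0.43 in that order. Trim7, a tripartite motif gene, had 25.5 and 37.8 CPM in the knockdown libraries, against 6.92 and 5.65 CPM in the controls. It rose, with a log2 fold change of 2.33 (SE 0.30, edgeR adjusted p = 0.0173), and its exons overlap those of Gm12184 and Gm16170 on the opposite strand. Pgbd5, a gene derived from a piggyBac transposase, had 12.7 and 24.4 CPM in the knockdown libraries and 5.71 and 4.46 CPM in the controls, but was not called (edgeR adjusted p = 0.0589). LOC105246506, a locus without a gene name in the table, had 13.9 and 22.5 CPM in the knockdown libraries, against 5.97 and 4.62 CPM in the controls, and was not called either (edgeR adjusted p = 0.0543). All 3 share with Phlda1 the higher level in knockdown replicate 2 than in knockdown replicate 1. This order and their higher level in the knockdown libraries follow from the choice by profile. A likeness over 4 libraries says nothing beyond these libraries.

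The phosphatase genes showed spread between libraries that covered the difference between groups. Dusp6, on chromosome 10 from 99263231 to 99267489 (plus strand), encodes a cytoplasmic phosphatase specific for ERK. Its level was 103 and 56.5 CPM in the knockdown libraries, against 87.2 and 56.8 CPM in the controls. The higher library of each group stood well above the lower, and the groups overlapped almost fully. The log2 fold change of Dusp6 was 0.15 (SE 0.31, edgeR adjusted p = 0.834). Its 95% interval, 0.67-fold to 1.84-fold, leaves room for a moderate change either way. The sign of Dusp6 rested on single libraries, since its log2 fold change was -0.18 without control replicate 2 and -0.35 without knockdown replicate 1. Dusp4, on chromosome 8 from 34807610 to 34819894 (plus strand), encodes a nuclear phosphatase of the same family. It had 24.2 and 20.3 CPM in the knockdown libraries, against 20.3 and 11.0 CPM in the controls. Control replicate 1 reached the level of the lower knockdown library, and control replicate 2 lay apart below. The log2 fold change of Dusp4 was 0.51 (SE 0.33, edgeR adjusted p = 0.439). It was 1.01 without control replicate 1 and 0.08 without control replicate 2.

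Spry1 and Spry2 had log2 fold changes of opposite sign, and neither passed the test over all genes. Both encode Sprouty proteins, which are induced by FGF signalling and inhibit it inside the cell. Spry2, on the minus strand of chromosome 14 from 105891947 to 105896819, had 136 and 141 CPM in the knockdown libraries, against 110 and 78.4 CPM in the controls. Its log2 fold change was 0.55 (SE 0.21, edgeR adjusted p = 0.193). Spry1, on the plus strand of chromosome 3 from 37639947 to 37644599, had 11.8 and 11.4 CPM in the knockdown libraries, against 23.9 and 16.9 CPM in the controls. Its log2 fold change was -0.81 (SE 0.28, edgeR adjusted p = 0.169). For both genes the knockdown libraries lay close together and apart from the controls, which differed from each other by 0.49 for Spry2 and 0.50 for Spry1 on the log2 scale, in the same direction. Libraries that do not overlap are common here, at 51.9% of all tested genes (27.3% with knockdown above, 24.6% with knockdown below), and were seen in 4 of the 9 feedback genes, above for Spry2 and Phlda1 and below for Spry1 and Etv4. Over the 13 alternatives the adjusted p ran from 0.0508 to 0.629 for Spry2 and from 0.0852 to 0.552 for Spry1. The log2 fold change of Spry2 was 0.28 without control replicate 2 and 0.82 without control replicate 1, and that of Spry1 was -1.09 and -0.55 in these fits. Exons of Spry1 overlap 710 bases of Gm42922, an unconfirmed transcript on the opposite strand with no row of its own name in the table, so its count carries the same strand limit as that of Phlda1.

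The ratio of these paralogs was nearly equal in both controls, although each level differed between them. Per kilobase of exon, Spry2 exceeded Spry1 by 16.1-fold and 17.2-fold in the knockdown libraries, against 6.44-fold and 6.46-fold in the control libraries. This ratio is taken within a library, so scaling between libraries does not enter it. The mean log2 ratio of Spry1 to Spry2 was lower by 1.37 in knockdown cells, where the largest gap within a group was 0.10. The pair was chosen after its values were seen, among 36 pairs of members, of which 27 had ratios that did not overlap between groups, as had 19 of the 28 pairs without Phlda1. Over all pairs of the 16146 tested genes with counts in every library, 52% did not overlap in this way, and pairs that share a gene are not independent. An exact two-sided permutation test over 2 against 2 libraries cannot give a p below 0.333, which is the value for this ratio.

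The promoters of Spry1 and Spry2 are shown, from 250 bases before to 50 bases after the start site. The start site is as RefSeq places it on GRCm38.p6 (the build also called mm10). Each runs 5′ to 3′ on the strand of the gene, in lower case. Capitals mark a match on either strand to the ETS-type sequence CCGGAA, the AP-1 site TGACTCA or the TATA box TATAAA. The Spry1 window is chr3:37639697-37639996 (plus strand) and the Spry2 window is chr14:105896770-105897069 (minus strand).
Spry1: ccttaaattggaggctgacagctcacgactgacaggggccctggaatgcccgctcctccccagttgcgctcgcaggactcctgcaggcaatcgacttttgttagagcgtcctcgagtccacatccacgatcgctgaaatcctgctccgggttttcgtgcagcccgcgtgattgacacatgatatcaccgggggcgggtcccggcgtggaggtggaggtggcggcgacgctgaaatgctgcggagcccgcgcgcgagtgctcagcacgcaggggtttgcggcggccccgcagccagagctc
Spry2: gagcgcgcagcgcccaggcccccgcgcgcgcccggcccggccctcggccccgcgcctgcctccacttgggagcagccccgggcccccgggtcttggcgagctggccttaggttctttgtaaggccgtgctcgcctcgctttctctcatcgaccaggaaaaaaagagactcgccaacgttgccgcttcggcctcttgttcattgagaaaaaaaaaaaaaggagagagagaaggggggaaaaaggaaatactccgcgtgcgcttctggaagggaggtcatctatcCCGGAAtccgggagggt
The Spry2 window held 1 match to CCGGAA, which begins at base 34 of the transcript. The Spry1 window held 0 matches to any of the 3 sequences. The shorter stretch GGAA, which was not counted or marked, occurs in both windows. Among 32851 promoters of the same length, 14.9% held CCGGAA, 5.20% the AP-1 site and 13.6% the TATA box. Promoter windows were found for 5 of the 9 feedback genes, in 6 windows, and those of Dusp6, Spred1 and Etv5 (which has more than 1 window) also held 0 matches. Entries were not found for Dusp4, Spry4, Etv4 and Phlda1. A match is a description of letters in a window and not a measured binding site. Whether these windows have a part in the ratio of Spry1 to Spry2 was not tested.

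Spry4 and Spred1, the other members that act between receptor and RAF, were not called. Spry4, on the minus strand of chromosome 18 from 38586247 to 38601347, had 272 and 244 CPM in the knockdown libraries, against 325 and 255 CPM in the controls. Its groups overlapped, at a log2 fold change of -0.17 (SE 0.19) and a 95% interval of 0.66-fold to 1.21-fold (edgeR adjusted p = 0.674). Without control replicate 1 its log2 fold change was 0.017. Spred1, whose protein recruits the RAS inhibitor neurofibromin to the membrane, lies on the plus strand of chromosome 2 from 117121071 to 117182279. It had 51.4 and 39.6 CPM in the knockdown libraries, against 32.5 and 40.2 CPM in the controls, with a log2 fold change of 0.33 and a standard error of 0.23 (edgeR adjusted p = 0.467). The lower knockdown library of Spred1 lay between the controls. Its log2 fold change was 0.12 without knockdown replicate 1, 0.18 without control replicate 1 and 0.50 without knockdown replicate 2.

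Etv4 and Etv5 encode ETS transcription factors of the PEA3 group, which FGF signalling induces. Etv4, on the minus strand of chromosome 11 from 101769747 to 101785310, had 128 and 119 CPM in the knockdown libraries, against 178 and 161 CPM in the controls. The groups did not overlap, and both pairs were tight. Etv4 was not called at a log2 fold change of -0.45 (SE 0.17, edgeR adjusted p = 0.193). It kept its sign in all 13 alternatives, from -0.57 to -0.38, and passed in 0 of them. Etv5, on the minus strand of chromosome 16 from 22381313 to 22439570, had 670 and 556 CPM in the knockdown libraries, against 711 and 439 CPM in the controls. The knockdown libraries of Etv5 lay between the controls. Its log2 fold change was 0.09 (SE 0.25, edgeR adjusted p = 0.874). It depended on the libraries kept, at -0.26 without control replicate 2, -0.053 without knockdown replicate 1, but 0.48 without control replicate 1.

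**Figure D2:**
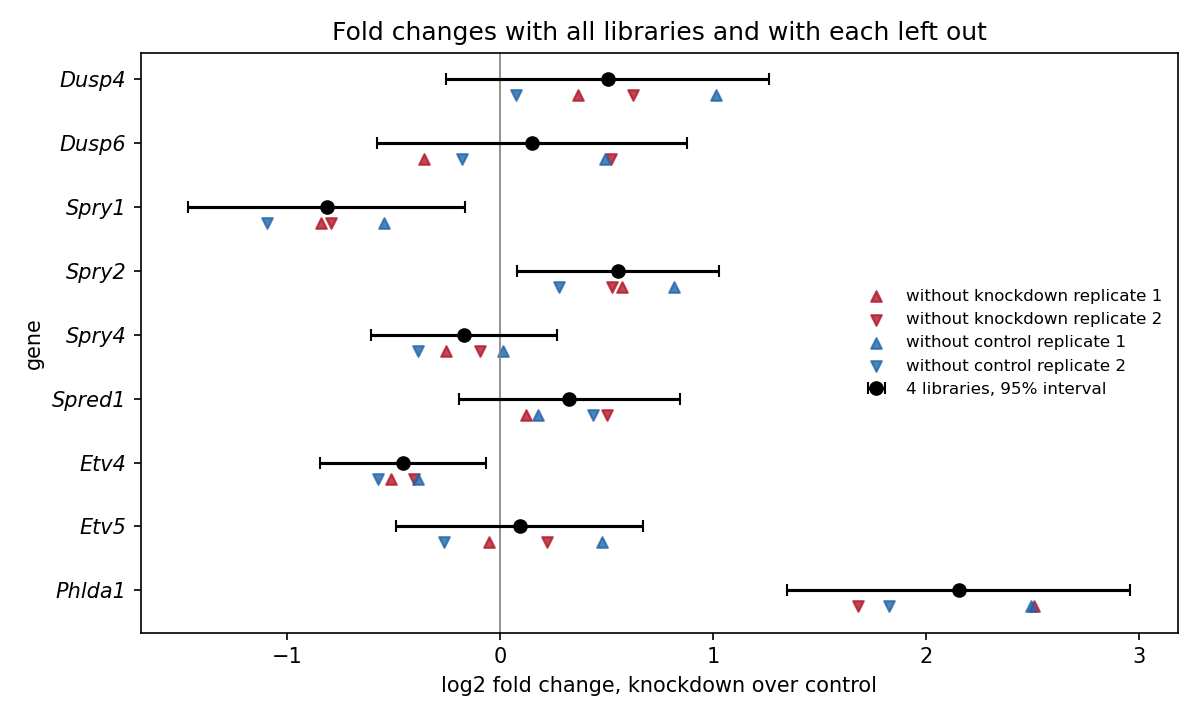
Log2 fold change, knockdown over control, of each ERK feedback gene from all 4 libraries (black points with 95% intervals) and with each library left out in turn (triangles: red without a knockdown library, blue without a control library). Phlda1 stays between 1.68 and 2.51 in the fits that leave out a library, whereas Dusp6, Spry4 and Etv5 change sign.

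Per kilobase of annotated exon, Etv5 had the highest level of the 9 genes, at 149 ± 19.6 CPM per kb in knockdown cells and 140 ± 46.8 CPM per kb in control cells (SD, n = 2 each). In knockdown cells it was followed by Spry2 at 66.4 ± 1.73, Spry4 at 54.2 ± 4.08, Etv4 at 39.8 ± 2.07 and Dusp6 at 25.5 ± 10.5 CPM per kb. Phlda1 at 19.4 ± 7.70, Dusp4 at 8.12 ± 1.00, Spred1 at 6.71 ± 1.22 and Spry1 at 3.99 ± 0.08 CPM per kb came after these. Neighbours whose knockdown libraries overlapped in this order were Dusp6 and Phlda1, and Dusp4 and Spred1. In control cells Phlda1 had the lowest mean of the 9, at 4.35 ± 1.30 CPM per kb, with libraries that overlapped those of Spred1 and Dusp4, and Spry1 stood at 7.02 ± 1.70 CPM per kb. Lengths count all annotated exons of a gene in GENCODE M21, so a gene whose cells use short isoforms is given too low a level.

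Within each pair of libraries most feedback genes differed in the same direction. In the knockdown pair, 7 of the 9 genes were higher in replicate 1 than in replicate 2, where 50.5% of all tested genes were, and their median log2 ratio was 0.15, beside 0.0037 over all tested genes. In the control pair, 8 of the 9 were higher in replicate 1, where 49.8% of all tested genes were, and their median log2 ratio was 0.50, beside -0.00070. The exceptions were Spry2 and Phlda1 in the knockdown pair and Spred1 in the control pair. For Dusp4, Dusp6, Spry4, Spred1 and Etv5 the difference between groups was smaller in size than the larger of the within-pair differences. For Spry1, Spry2, Etv4 and Phlda1 it was larger. These are also the members whose libraries did not overlap between groups, which held for 51.9% of all tested genes. The share of all tested genes with a larger difference between groups than within pairs was not computed. These counts were made after the values were seen and were given no test.

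**Figure D3:**
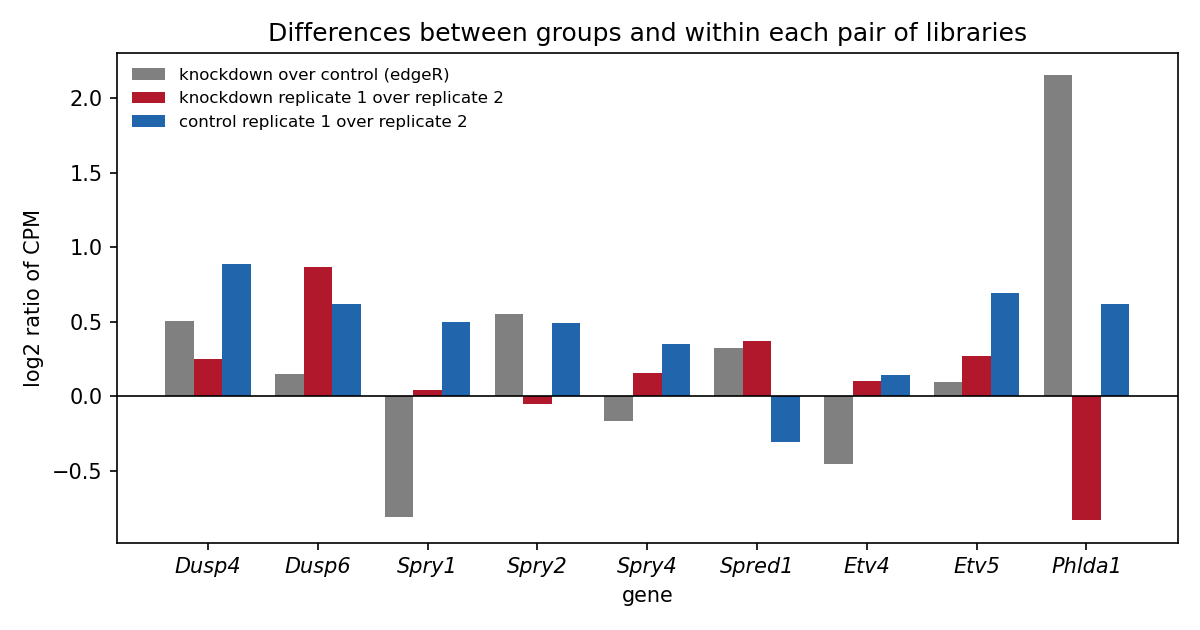
Log2 ratios of CPM for each ERK feedback gene: knockdown over control from edgeR (grey), knockdown replicate 1 over replicate 2 (red) and control replicate 1 over replicate 2 (blue). The blue bars are above 0 for 8 of the 9 genes, with Spred1 below 0, and the grey bar of Phlda1 at 2.15 exceeds its within-pair bars.

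Among FGF ligand and receptor genes, Fgf15, a ligand gene at low level, fell. Of these 11 genes, 9 were tested with edgeR, of which 1 fell and 0 rose, with a median log2 fold change of -0.55, beside 0.01 over all tested genes. The log2 fold change was positive for 3, all receptor genes. It was negative for 6, which were every tested ligand gene and the receptor genes Fgfr3 and Fgfrl1. Over all 16209 tested genes, 8030 had a negative value. The ligand genes Fgf5 and Fgf8 did not pass the filter, and the gene lists did not separate ligands from receptors. At an unadjusted p below 0.05 there were 2 higher and 4 lower, where 11% of all tested genes were higher and 8.58% lower. By the adjusted p, 0.876% of all tested genes rose and 0.555% fell. DESeq2 called 1 higher (Fgfr2) and 2 lower (Fgf15 and Fgf17). Fgf15, the mouse counterpart of human FGF19, lies on chromosome 7 from 144896532 to 144900953. It had 2.56 and 1.64 CPM in the knockdown libraries, against 11.4 and 11.8 CPM in the controls, a log2 fold change of -2.46 (SE 0.38, edgeR adjusted p = 0.0309). Without knockdown replicate 2 it was -2.18 and not called (edgeR adjusted p = 0.062). Its adjusted p over the alternatives ran from 9.55e-07 to 0.062, and its exons overlap those of antisense genes. Fgf4, the ligand that stem cells secrete and which is outside the naming rule, had 128 and 176 CPM in the knockdown libraries, against 245 and 219 CPM in the controls. Its groups did not overlap, and it was not called at -0.61 on the log2 scale (edgeR adjusted p = 0.155).

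Within the cascade from adaptor to kinase, Mapk3, the ERK1 gene, fell, and it was the 1 called gene of 22 tested, also with DESeq2 and limma-voom, with 0 rising. At an unadjusted p below 0.05 there were 2 higher and 2 lower. Over all tested genes, 19.6% passed that level and 1.43% were called. The median log2 fold change of the list was 0.12, with 14 values above 0 and 8 below. Mapk3 lies on chromosome 7 from 126759626 to 126765816. It had 46.0 and 31.3 CPM in the knockdown libraries, against 123 and 89.0 CPM in the controls, a log2 fold change of -1.46 (SE 0.25, edgeR adjusted p = 0.0423). The call was lost with total-count scaling at -1.40 (edgeR adjusted p = 0.0573), without control replicate 1 at -1.20 (edgeR adjusted p = 0.0533) and without knockdown replicate 2 at -1.21 (edgeR adjusted p = 0.112). Over the alternatives its adjusted p ran from 5.24e-08 to 0.112.

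Among 14 relatives of the feedback genes (other DUSP, Sprouty, SPRED, PEA3 and PHLDA genes), 1 rose and 0 fell, with a median log2 fold change of 0.09. The gene that rose was Phlda3, a p53 target that inhibits AKT, on chromosome 1 from 135766085 to 135769134. It had 91.3 and 95.4 CPM in the knockdown libraries, against 37.4 and 28.3 CPM in the controls, and a log2 fold change of 1.51 (SE 0.21, edgeR adjusted p = 0.0209). At an unadjusted p below 0.05 there were 3 higher and 3 lower, where 11% of all tested genes were higher and 8.58% lower. The share of all tested genes called by the adjusted p was 1.43%. DESeq2 called 2 of the relatives higher (Phlda3 and Dusp8) and 1 lower (Phlda2). The third PHLDA gene, Phlda2, had 4.19 and 9.97 CPM in the knockdown libraries, against 18.0 and 21.6 CPM in the controls, and was not called (edgeR adjusted p = 0.109).

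Other genes that respond to ERK, from immediate early factors to Ephrin receptors, gave 0 calls in either direction among 15 tested, with a median log2 fold change of 0.02. At an unadjusted p below 0.05 there were 3 higher and 1 lower, and limma-voom called 0. Beside these, 11% of all tested genes were higher and 8.58% lower at that level, and 1.43% were called. The most abundant were Mcl1, a survival gene of the BCL2 family, and Epha2, a receptor kinase gene. Epha2 had 371 and 308 CPM in the knockdown libraries, against 228 and 171 CPM in the controls, at 0.76 on the log2 scale (SE 0.21, edgeR adjusted p = 0.103). DESeq2 called it higher (adjusted p = 0.0332), as did the likelihood ratio test, the fit on unfiltered genes and the fit without control replicate 1, and its adjusted p ran from 0.00945 to 0.421. Mcl1 had 407 and 397 CPM in the knockdown libraries, against 373 and 531 CPM in the controls, at -0.17 on the log2 scale (edgeR adjusted p = 0.709). Leaving out control replicate 2 put it at 0.058.

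**Figure D4:**
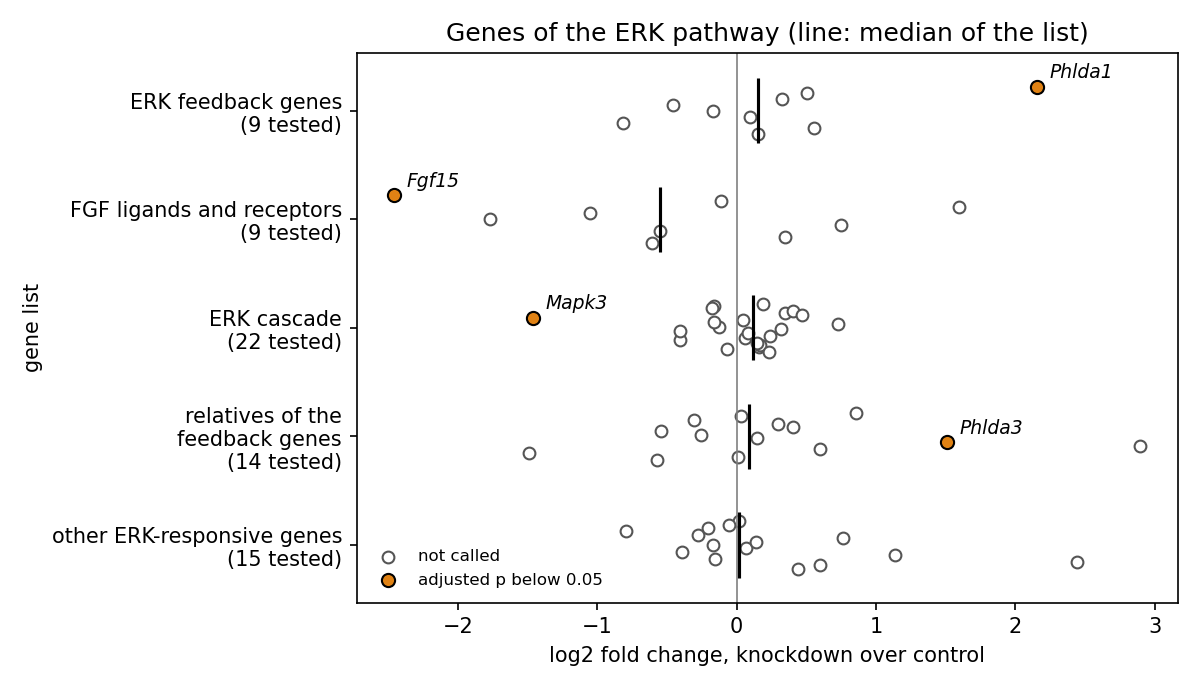
Log2 fold change, knockdown over control, of the tested genes of the ERK feedback list and of 4 related lists, with 1 point per gene, filled where the edgeR adjusted p was below 0.05, and a line at each list's median. Phlda1 and Phlda3 are the filled points above 0, and Mapk3 and Fgf15 are those below 0.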

How the data were processed

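The deposited table held the authors' raw counts of reads for each gene, without normalization, for 2 knockdown and 2 control libraries. Per the submitters' processing notes, reads were trimmed with cutadapt, aligned with HISAT2 to mm10 and counted with featureCounts. Not given in the sources used here are versions, annotation, strand setting and the handling of multiply mapping reads, which bears on genes with near-identical copies. Per the labels' protocols, the kit selected mRNA.

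Spike-in rows (92, all at 0 counts) were left out of 36068 rows. Symbols turned into dates by a spreadsheet (27 rows) stayed in the totals. Genes were filtered with filterByExpr (16209 kept, 19767 removed), scaled by TMM and compared with edgeR 4.0.16 (R 4.3.3), with group as the only term. The standard error (SE) was derived from the F statistic as the size of the fold change over the root of F, and 95% intervals use the moderated degrees of freedom. The procedure was run on simulated counts drawn from means and dispersions fitted to these same libraries. That run shares the assumptions of the model, so it cannot show that the calls made here hold. Positions come from RefSeq GRCm38.p6 and exon lengths from GENCODE M21.

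The members and gene lists were chosen with earlier results of these data known. Named by rule were the 9 members, called members of each pathway list (up to 6, or else the 2 most abundant) and the 3 genes nearest in profile to the member of smallest p. Alternatives were 3 scalings, 2 filters, DESeq2 1.42.0, limma-voom (limma 3.58.1), the likelihood ratio test, a replicate block and leaving out each library. Some genes are not reported here.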

Additional observations from a re-analysis of the deposited data

How the results depend on the processing

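Phlda1 was the 1 member called in 11 of 13 alternatives, and leaving out a library gave 0 to 1 called members. Over the 13 alternatives and 9 members, 110 of 117 values kept their direction and their side of the threshold, 2 were no longer called (both Phlda1) and 5 changed sign without a library. Over the fits without a library, Dusp6 ran from -0.35 to 0.52, Etv5 from -0.26 to 0.48, Spry4 from -0.39 to 0.017 and, outside the members, Mcl1 from -0.40 to 0.058. The cause was not tested. Leaving out a library put the median of the members between -0.18 and 0.50, so its sign depended on the libraries kept. Its spread between library pairs was 0.41 on the log2 scale. That spread comes from the same libraries, so moves smaller than it do not show that the median is stable. Over the whole table, 232 genes were called, against 1717 without a filter, 1107 by DESeq2, 1310 by the likelihood ratio test, 656 under the replicate block and 153 to 587 without a library. With the replicate block Phlda1 alone was called among the members. Over all tested genes, samples with the same number did not deviate together (correlation -0.05), so the numbers are not taken to pair them. Of the 9 members, however, 7 were higher in replicate 1 of the knockdown pair and 8 in replicate 1 of the control pair. Whether these members share a replicate difference was not tested. Fits with the block or without a library had 1 residual degree of freedom, and the spread of a lone library was taken from the other group. The number of libraries limits precision, and for genes with few counts, such as Fosl1 and Dusp8, so does counting error.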

Other observations

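Egr1 and Junb, immediate early genes that ERK induces within minutes, differed more within a pair of libraries than between groups. The genes of this section are named after their values were seen. Egr1 had 89.1 and 33.3 CPM in the knockdown libraries, against 106 and 42.4 CPM in the controls, and was higher in replicate 1 of each pair. Junb had 41.7 and 57.5 CPM in the knockdown libraries, against 78.9 and 35.7 CPM in the controls, so that its order was reversed in the knockdown pair. Fosl1, an AP-1 gene at low level, had 0.63 and 1.16 CPM in the knockdown libraries, against 0.21 and 0.10 CPM in the controls. It was not called by edgeR's quasi-likelihood test (adjusted p = 0.129), DESeq2 or limma-voom, but was called higher by the edgeR likelihood ratio test.

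Dusp8, a phosphatase gene directed at stress kinases, had 2.30 and 4.01 CPM in the knockdown libraries, against 0.21 and 0.62 CPM in the controls. Dusp8 was not called by the quasi-likelihood test (edgeR adjusted p = 0.0698) but was called higher by DESeq2 and the likelihood ratio test. Dusp9, an ERK phosphatase gene, had 61.3 and 92.5 CPM in the knockdown libraries, against 114 and 110 CPM in the controls, and was not called (edgeR adjusted p = 0.232).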
